A study of Rattus norvegicus with 22 samples.

Results

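The levels of 10 genes for fibronectin, elastic fibre and matrix-remodelling glycoproteins were described in rat ventral cervical spinal cord, namely Fn1, Fndc1, Aebp1, Tgm2, Fbln1, Fbln2, Fbln5, Fbn1, Eln and Sparc. Each was found in the deposited count table by its symbol, 1 row per gene, so that 10 of 32883 rows are described. The genes were selected on earlier results of the contrast between castrated and intact males, and that contrast is therefore given below as a description, with counts from which nothing is read. RNA came from spinal segments C3 to C6 of young-adult Sprague-Dawley rats, 3 to 4 months old, with 1 library per rat and no pooling. The groups were 5 males with testes (intact males), 5 castrated males (GDX males), 6 virgin females with ovaries (intact females) and 6 ovariectomized females (OVX females). Gonadectomy lowers circulating sex steroids, and tissue of GDX and OVX rats was taken 2 weeks after surgery. All rats were perfused with saline before the dorsal part of the cord was removed. The intact rats were age-matched, and the sources used here describe no sham operation for them, so that surgery and loss of the gonads cannot be told apart. Hormone levels were not available here.

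Fibronectin is a secreted glycoprotein that cells assemble into fibrils through integrins, and its fibrils serve as a scaffold on which collagens, fibrillin and other matrix proteins are deposited. Elastic fibres consist of an elastin core, cross-linked by lysyl oxidases, on a sheath of fibrillin microfibrils, and fibulins help to join the elements. In the spinal cord such interstitial matrix is a feature of the meninges, the walls of larger vessels and the connective tissue of nerve roots, whereas the matrix between neurons and glia is rich in hyaluronan and proteoglycans. SPARC is a matricellular protein that is also made by glial and endothelial cells of the central nervous system.

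Between 12371756 and 17571887 reads were counted per library. The median total of males was 14196615 with testes and 15645521 without, and that of females 14640726 with ovaries and 14766802.5 without. Levels are given in CPM, the standard unit for the share of a gene among all counted reads after scaling of the library sizes, and differences as log2 fold changes with their standard error (SE). CPM is not divided by gene length, so levels are compared between rats and not between genes. The counts of the 10 genes together ranged from 8517 to 16900 per library. Reads of Fbln5 were few, 9 to 38 per library, and a single rat's value of this gene is correspondingly coarse. The Y-linked genes Kdm5d and Eif2s3y had at least 30.6 and 36.1 CPM in every male library and 0 CPM in every female library. Markers of spinal cord cells were abundant, with Mbp of oligodendrocytes at a mean of 11650 CPM and Nefl of neurons at 4631 CPM in intact males. Of 5 markers of dorsal root neurons 1 had enough reads to be tested, Trpv1, with a mean of 2.33 CPM in intact males, and Mrgprd was at 0 CPM in all 22 libraries.

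A technical feature divides the libraries. In 15 libraries the average input fragment size fell in a shorter class and in 7 in a longer class. All GDX and OVX libraries belonged to the shorter class, as did rats 2 and 5 of the intact males. Rats 1 and 4 of the intact females were in it too, and the longer class held intact rats alone. Differences within the shorter class are therefore given with the male and the female comparison, with the caution that they rest on 2 intact rats of each sex.

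Intact males had the lowest mean level of 9 of the 10 genes, and the other groups lay above them to a varying degree. The exception was Fbln2, whose mean was lowest in intact females and differed little across groups. Means were highest in OVX females for Fn1, Fndc1, Aebp1, Tgm2, Fbln2, Fbn1 and Sparc, and in GDX males for Fbln1, Fbln5 and Eln. The summed level of the 10 genes in males was 633 ± 48.0 CPM (SD, n = 5) when intact and 864 ± 109.7 CPM (SD, n = 5) after GDX, and in females 803 ± 110.1 CPM (SD, n = 6) when intact and 913 ± 72.7 CPM (SD, n = 6) after OVX. Sparc made up most of this sum, so the other genes are better seen singly. In bulk tissue such as this, fewer cells of a type and less RNA per cell cannot be told apart.

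**Figure D1:**
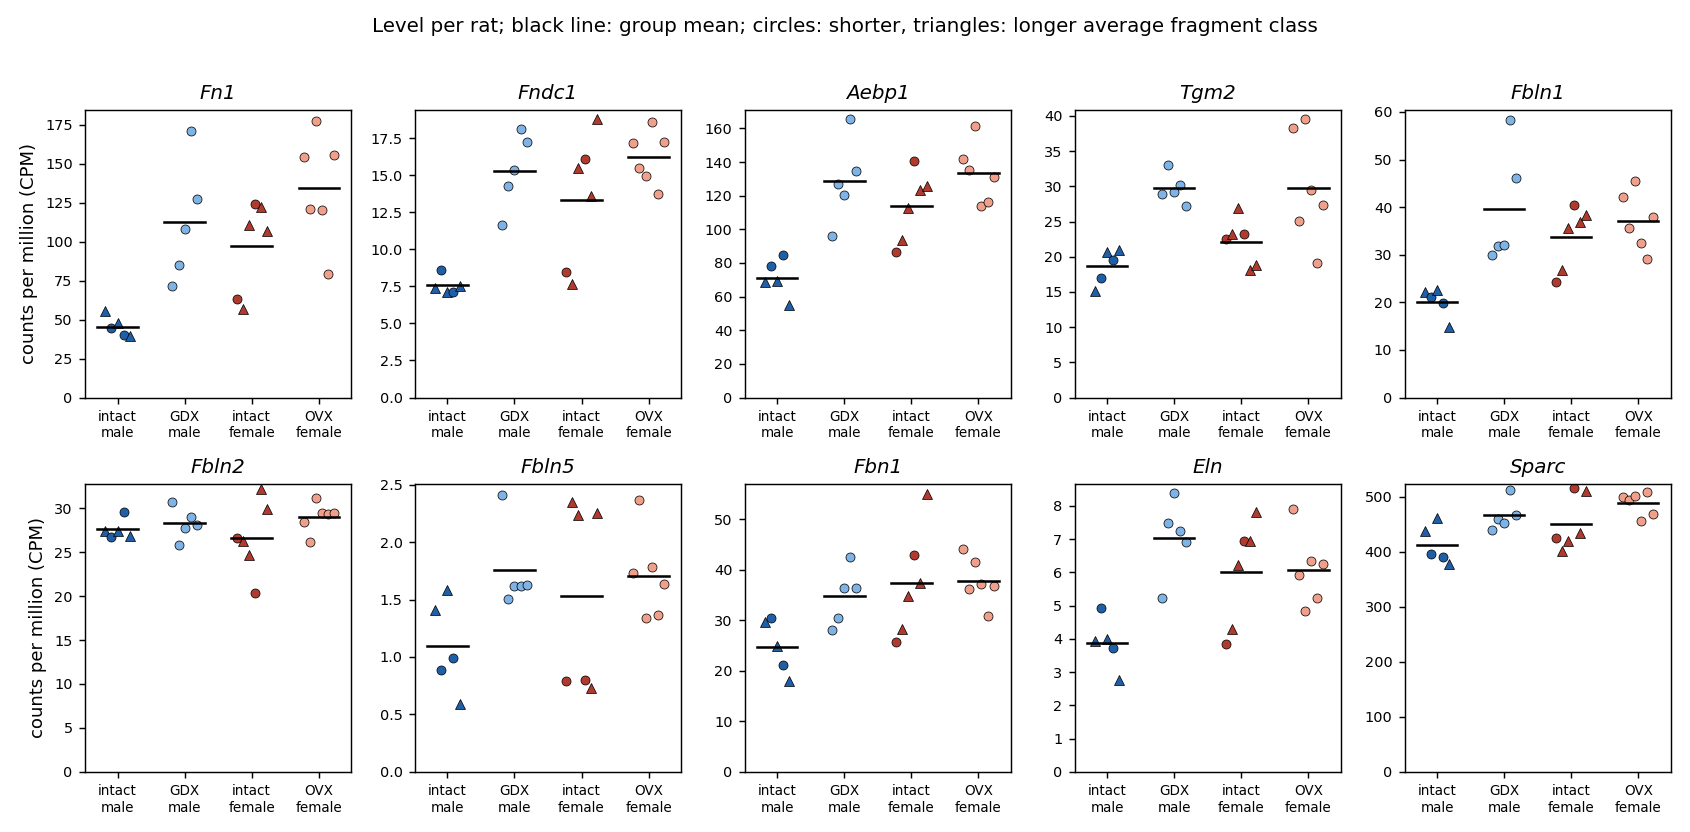
Level of each of the 10 genes in CPM (vertical axes, from 0) in every rat by group, with the group mean as a black line, circles for libraries of the shorter and triangles for libraries of the longer fragment class. For Fn1 the 5 intact males lie between 39.3 and 55.5 CPM and the 5 GDX males between 71.7 and 171 CPM, while the points of Fbln2 overlap in all groups.

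Promoters are shown for 3 genes that varied together within groups (Fndc1, Aebp1 and Fbn1) and for Fbln2, which did not vary with them. The RefSeq table of rat assembly GRCr8 held promoters for 6 of the 10 genes (Fndc1, Aebp1, Fbln2, Fbln5, Fbn1 and Sparc), each 300 bases long, from 250 bases before to 50 after the start used in that table. Fn1, Tgm2, Fbln1 and Eln were not matched. Both strands were searched for the TATA box TATAAA, the CCAAT box, the GC box GGGCGG, the AP-1 site TGACTCA and the SMAD element CAGAC. The further letters were TGACG as core of the cAMP element, AGAACA as core of steroid receptor sites, AGGTCA as core of other nuclear receptor sites and the E box CACGTG, and matches are in capitals. The promoters shown lie on chromosome 1 for Fndc1 (chr1:49686606-49686905, plus strand), chromosome 14 for Aebp1 (chr14:84952604-84952903, plus strand), chromosome 3 for Fbn1 (chr3:133203341-133203640, minus strand) and chromosome 4 for Fbln2 (chr4:125261409-125261708, plus strand).
Fndc1: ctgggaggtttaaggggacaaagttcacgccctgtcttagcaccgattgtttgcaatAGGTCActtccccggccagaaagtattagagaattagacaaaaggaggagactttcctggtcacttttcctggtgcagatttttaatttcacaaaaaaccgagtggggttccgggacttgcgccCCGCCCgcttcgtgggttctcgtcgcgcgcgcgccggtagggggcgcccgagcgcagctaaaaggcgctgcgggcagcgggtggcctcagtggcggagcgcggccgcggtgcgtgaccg
Aebp1: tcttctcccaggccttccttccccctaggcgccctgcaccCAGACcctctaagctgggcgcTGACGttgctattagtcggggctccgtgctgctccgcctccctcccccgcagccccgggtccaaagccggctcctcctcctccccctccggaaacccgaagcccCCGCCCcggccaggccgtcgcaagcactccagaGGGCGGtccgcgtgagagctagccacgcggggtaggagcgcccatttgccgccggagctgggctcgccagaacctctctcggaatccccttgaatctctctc
Fbn1: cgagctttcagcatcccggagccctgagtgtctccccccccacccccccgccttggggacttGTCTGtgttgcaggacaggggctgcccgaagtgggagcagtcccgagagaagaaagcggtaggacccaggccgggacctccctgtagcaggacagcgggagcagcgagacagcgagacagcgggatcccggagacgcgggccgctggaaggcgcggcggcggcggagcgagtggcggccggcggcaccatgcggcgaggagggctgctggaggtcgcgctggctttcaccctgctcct
Fbln2: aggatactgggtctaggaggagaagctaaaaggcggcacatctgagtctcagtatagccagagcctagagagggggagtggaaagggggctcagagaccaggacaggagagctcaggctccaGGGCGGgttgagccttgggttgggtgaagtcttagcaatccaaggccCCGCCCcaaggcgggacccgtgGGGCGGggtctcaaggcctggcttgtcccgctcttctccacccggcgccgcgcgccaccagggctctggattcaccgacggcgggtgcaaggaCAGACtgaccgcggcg
The GC box was present in 4 of the 6 promoters and in 33.1% of all 33469 promoters of the table, with 1 match in Fndc1, 2 in Aebp1, 3 in Fbln2 and 1 in Fbln5. The SMAD element was present in 5 of the 6 and in 50.1% of all promoters. The nuclear receptor core was found in Fndc1 but no other of the 6, against 16.2% of all promoters, the cAMP core in Aebp1, against 21.2%, and the CCAAT box in Fbln5, against 37.5%. No match was found in these 6 windows for the TATA box, the AP-1 site, the steroid receptor core or the E box, which occur in 14.2%, 4.63%, 20.7% and 6.42% of all promoters. The share of G and C was 59.7% in Fndc1, 69.0% in Aebp1, 70.7% in Fbn1 and 64.7% in Fbln2, against a median of 51.7% over all promoters. None of the letters searched was shared by Fndc1, Aebp1 and Fbn1. A match is a description of letters and not of a bound site. In Fbn1 the bases after the start used in that table open with ATG, so that start may be one of translation. Its window may then not lie at a start of transcription, which limits its comparison with the others.

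Fn1 (ENSRNOG00000014288) encodes fibronectin itself. In intact males 1, 2, 3, 5 and 6 its level was 55.5, 44.3, 47.6, 40.2 and 39.3 CPM, and in GDX males 1, 2, 4, 5 and 6 it was 71.7, 85.4, 108, 171 and 127 CPM. The lowest GDX male lay above the highest intact male, so the male groups did not overlap, and GDX males were spread more widely, with a coefficient of variation of 34.6% against 14.5%. In intact females the level ranged from 56.5 to 124 CPM with a median of 109 CPM, and in OVX females from 79.6 to 178 CPM with a median of 138 CPM. The female groups overlapped, and intact females 1 and 2 (63.3 and 56.5 CPM) lay apart from the other 4, which were at 107 CPM or above. The log2 difference was 1.31 ± 0.19 (SE) for GDX minus intact males and 0.47 ± 0.20 (SE) for OVX minus intact females. Intact males 2 and 5, which like all GDX males were of the shorter fragment class, had 44.3 and 40.2 CPM.

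Fndc1 (ENSRNOG00000030210) encodes a secreted protein with fibronectin type III domains, and its promoter is shown above. Intact males 1, 2, 3, 5 and 6 had 7.40, 8.63, 7.09, 7.12 and 7.55 CPM, and GDX males 1, 2, 4, 5 and 6 had 11.7, 14.3, 15.3, 18.1 and 17.2 CPM. The intact males formed a narrow cluster with a coefficient of variation of 8.34%, entirely below the GDX males. Intact females ranged from 7.67 to 18.8 CPM with a median of 14.5 CPM, which is the widest spread of any group for this gene (33.2%). Again intact females 1 and 2, at 8.46 and 7.67 CPM, were near the intact males, and the other 4 were at 13.6 CPM or above. OVX females ranged from 13.8 to 18.6 CPM with a median of 16.3 CPM. The log2 difference was 1.01 ± 0.12 (SE) between the male groups and 0.29 ± 0.17 (SE) between the female groups.

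Aebp1 (ENSRNOG00000013720) encodes a secreted carboxypeptidase-like protein, ACLP, that binds collagen. Its level was 68.8, 78.3, 69.0, 84.9 and 55.1 CPM in intact males 1, 2, 3, 5 and 6, and 96.3, 127, 120.2, 165 and 135 CPM in GDX males 1, 2, 4, 5 and 6. The male groups did not overlap. Intact females had 86.6 to 141 CPM with a median of 118 CPM, all above the highest intact male, and OVX females had 114 to 161 CPM with a median of 133 CPM. The log2 difference was 0.85 ± 0.13 (SE) between GDX and intact males and 0.23 ± 0.11 (SE) between OVX and intact females. In intact males the longer fragment class was lower than the shorter by 0.35 on the log2 scale for this gene, and with the fragment class as a term the difference between the male groups was 0.65.

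Tgm2 (ENSRNOG00000012956) encodes tissue transglutaminase, which cross-links matrix proteins including fibronectin. Intact males 1, 2, 3, 5 and 6 had 15.1, 16.97, 20.7, 19.6 and 21.01 CPM, and GDX males 1, 2, 4, 5 and 6 had 29.0, 33.1, 29.2, 30.2 and 27.2 CPM. The male groups did not overlap, and GDX males varied little, with a coefficient of variation of 7.28%. Intact females ranged from 18.1 to 26.9 CPM with a median of 22.9 CPM, and OVX females from 19.2 to 39.6 CPM with a median of 28.4 CPM. OVX females 1 and 3 were high at 38.3 and 39.6 CPM, while OVX females 2 and 5 (25.1 and 19.2 CPM) were within the range of intact females and the groups overlapped. The log2 difference was 0.67 ± 0.09 (SE) in males and 0.43 ± 0.15 (SE) in females.

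The fibulins are calcium-binding glycoproteins of elastic fibres and basement membranes, and their 3 genes differed in pattern. Fbln1 (ENSRNOG00000014137), whose product also binds fibronectin, had 22.2, 21.1, 22.6, 19.9 and 14.9 CPM in intact males 1, 2, 3, 5 and 6 and 29.9, 31.9, 32.1, 58.3 and 46.2 CPM in GDX males 1, 2, 4, 5 and 6. No GDX male overlapped with an intact male, and GDX males 5 and 6 stood above the other 3. Its range was 24.3 to 40.5 CPM in intact females and 29.2 to 45.5 CPM in OVX females, and the log2 differences were 0.97 ± 0.17 (SE) in males and 0.14 ± 0.12 (SE) in females. Fbln2 (ENSRNOG00000007338) was at 27.6 ± 1.16 CPM (SD, n = 5) in males when intact and 28.3 ± 1.80 CPM (SD, n = 5) after GDX, and at 26.7 ± 4.11 CPM (SD, n = 6) in females when intact and 29.0 ± 1.66 CPM (SD, n = 6) after OVX. All 4 groups of Fbln2 overlapped, with log2 differences of 0.03 ± 0.06 (SE) in males and 0.12 ± 0.08 (SE) in females, the latter becoming 0.29 with the shorter class alone. Fbln5 (ENSRNOG00000050539), which is required for elastic fibre assembly, ranged from 0.591 to 1.58 CPM in intact males and from 1.51 to 2.41 CPM in GDX males, which overlapped, with a log2 difference of 0.69 ± 0.27 (SE). Its values in intact females fell into a low set of 3 rats between 0.734 and 0.797 CPM and a high set of 3 rats between 2.24 and 2.35 CPM, and OVX females lay between 1.34 and 2.37 CPM. The difference between OVX and intact females was 0.18 ± 0.31 (SE), and it became 1.11 with the fragment class as a term and 1.10 with the shorter class alone, where both intact females belong to the low set of 11 and 14 reads.

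Fbn1 (ENSRNOG00000007302) encodes fibrillin-1, the main protein of microfibrils. Its level in intact males 1, 2, 3, 5 and 6 was 29.6, 30.5, 24.8, 21.1 and 18.1 CPM, and in GDX males 1, 2, 4, 5 and 6 it was 28.1, 30.4, 36.5, 42.5 and 36.5 CPM. GDX males 1 and 2 lay within the range of intact males, so these groups overlapped. Intact females ranged from 25.6 to 55.1 CPM with a median of 36.0 CPM and OVX females from 30.8 to 44.1 CPM with a median of 37.0 CPM. The log2 differences were 0.49 ± 0.14 (SE) in males and 0.03 ± 0.14 (SE) in females.

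Eln (ENSRNOG00000001469) encodes elastin. Intact males 1, 2, 3, 5 and 6 had 3.95, 4.94, 4.00, 3.72 and 2.76 CPM, and GDX males 1, 2, 4, 5 and 6 had 5.23, 7.47, 8.38, 7.25 and 6.91 CPM, without overlap. Intact females ranged from 3.84 to 7.83 CPM with a median of 6.57 CPM, and rats 1 and 2 of that group (3.84 and 4.28 CPM) were again within the range of intact males. OVX females ranged from 4.85 to 7.91 CPM with a median of 6.08 CPM. The log2 differences were 0.86 ± 0.17 (SE) in males and 0.03 ± 0.17 (SE) in females. Counts of this gene were modest, 42 to 137 reads per library.

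Sparc (ENSRNOG00000012840), also called osteonectin, encodes a collagen-binding matricellular protein. Its level ranged from 378 to 462 CPM in males with testes and from 439 to 512 CPM in those without, and from 401 to 516 CPM in females with ovaries and from 456 to 508 CPM in those without. Intact male 3 (462 CPM) lay above GDX males 1, 2 and 4, so the male groups overlapped, and the spread within groups was small, with coefficients of variation from 4.27% to 10.9%. The log2 differences were 0.17 ± 0.06 (SE) in males and 0.11 ± 0.06 (SE) in females.

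The comparison of GDX with intact males asks how removal of the testes alters the tissue, and it is the contrast on which the 10 genes were chosen. All 10 log2 differences were above 0, with a median of 0.77 against 0.0021 over all 14931 genes tested, and they ranged from 0.03 for Fbln2 to 1.31 for Fn1. The value of Fbln2 had the opposite sign with the fragment class as a term (-0.000324) and without GDX male 1 (-0.00173). Of the 10 genes, 7 (Fn1, Fndc1, Aebp1, Tgm2, Fbln1, Fbn1 and Eln) were called higher in GDX males, where 6.78% of all tested genes were called higher. The male groups did not overlap for 6 genes (Fn1, Fndc1, Aebp1, Tgm2, Fbln1 and Eln), with GDX males higher, as did 3.76% of all tested genes. Because the genes were selected on this contrast, nothing is read from these counts. With the fragment class as a term, or with libraries of the shorter class alone, Fbn1 and Eln were no longer among the calls, which then numbered 5. With the shorter class alone the log2 differences were 1.41 for Fn1, 0.96 for Fndc1, 0.65 for Aebp1, 0.70 for Tgm2, 0.95 for Fbln1, 0.00 for Fbln2, 0.89 for Fbln5, 0.44 for Fbn1, 0.71 for Eln and 0.24 for Sparc.

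**Figure D2:**
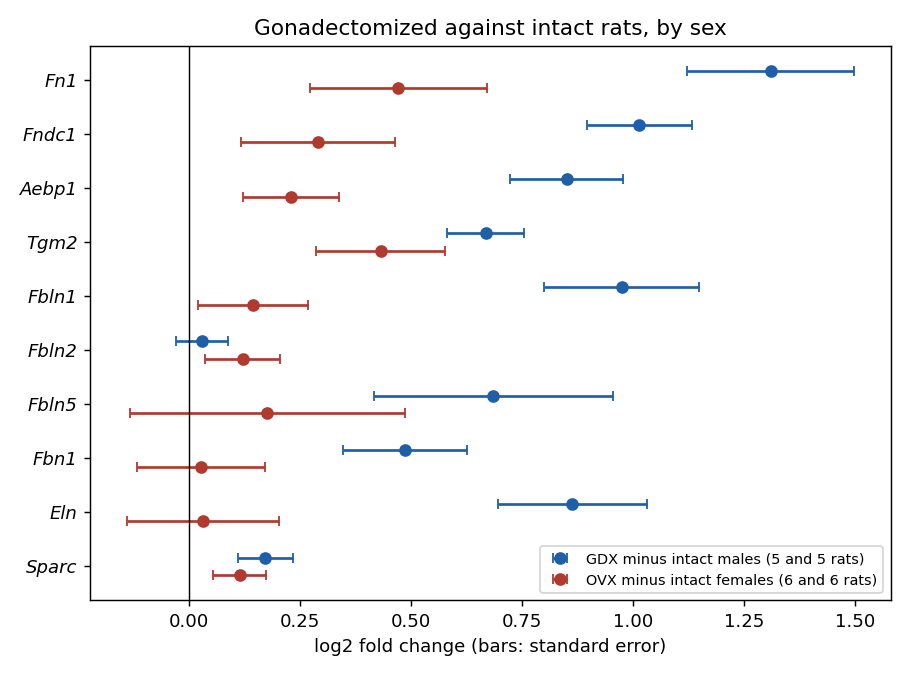
Log2 fold change of each gene (horizontal axis) with its SE as bars, for GDX minus intact males in blue (5 and 5 rats) and OVX minus intact females in red (6 and 6 rats). The male values run from 0.03 for Fbln2 to 1.31 for Fn1 and the female values from 0.03 for Fbn1 and Eln to 0.47 for Fn1.

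OVX and intact females are other rats than those used to choose the genes, so this comparison could be tested. The limit remains that the genes, lists and tests were chosen with earlier results of these data known. None of the 10 genes passed edgeR's quasi-likelihood test at an adjusted p under 0.1, where 0.0335% of all 14910 tested genes passed. DESeq2 and edgeR's exact test also called 0 of the 10. At an unadjusted p under 0.05 the number was 3 (Fn1, Aebp1 and Tgm2), where 10.2% of all tested genes reached this level. The smallest adjusted p in edgeR's quasi-likelihood test was that of Tgm2, 0.307, for a log2 difference of 0.43, with 5 of 6 OVX females above the mean of intact females. Fn1 had an adjusted p of 0.432 in the same edgeR test, with 5 of 6 OVX females above the intact mean, and Aebp1 an adjusted p of 0.485, also with 5 of 6. For Fndc1 and Sparc all 6 OVX females were above the mean of intact females, with edgeR adjusted p of 0.610 and 0.543. The remaining genes had edgeR adjusted p of 0.675 for Fbln2, 0.756 for Fbln1, 0.911 for Fbln5 and 0.976 for both Fbn1 and Eln. All 10 log2 differences were above 0, with a median of 0.16 against 0.0025 over all genes tested, but that of Fbn1 was -0.07 and that of Eln -0.07 without intact female 1, and both were also negative without intact female 2 or OVX female 1. With the shorter class alone the log2 differences were 0.53 for Fn1, 0.42 for Fndc1, 0.23 for Aebp1, 0.38 for Tgm2, 0.20 for Fbln1, 0.29 for Fbln2, 1.10 for Fbln5, 0.15 for Fbn1, 0.19 for Eln and 0.05 for Sparc. Groups that did not overlap, with OVX higher, were seen for 0 of the 10 genes and for 0.315% of all tested genes.

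Intact males were also set beside intact females. These are the intact males that entered the choice of the genes, so their low values appear in both comparisons and the following is again a description. The log2 difference of intact males minus intact females was -1.10 ± 0.19 (SE) for Fn1, -0.81 ± 0.20 (SE) for Fndc1, -0.74 ± 0.14 (SE) for Fbln1 and -0.67 ± 0.12 (SE) for Aebp1. These 4 genes were called lower in intact males, where 2.56% of all 14937 tested genes were called lower. The groups did not overlap for Fn1, Aebp1 and Fbln1, with intact males lower, as for 1.51% of all tested genes. Eln and Fbn1 had differences of -0.63 ± 0.20 (SE) and -0.59 ± 0.18 (SE) and were not called, nor were Fbln5 at -0.48 ± 0.38 (SE), Tgm2 at -0.25 ± 0.11 (SE), Sparc at -0.13 ± 0.07 (SE) and Fbln2 at 0.05 ± 0.09 (SE). With libraries of the shorter class alone, 2 males against 2 females, 0 of the 10 genes were called.

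GDX males were also set beside OVX females. The GDX males are among the rats that entered the choice of the genes, so this too is a description, and all its libraries belong to the shorter fragment class. The comparison called 0 of the 10 genes in edgeR's quasi-likelihood test, 0 in DESeq2 and 0 in edgeR's exact test, where 0.232% of all 15084 genes were called. At an unadjusted p under 0.05 there were also 0 of the 10 and 9.37% of all genes. The log2 differences of GDX males minus OVX females ranged from -0.26 ± 0.21 (SE) for Fn1 to 0.21 ± 0.14 (SE) for Eln, with a median of -0.04.

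Whether the change after gonadectomy differed between the sexes was computed over all 22 rats. The male contrast that chose the genes is part of each value, so the values and counts are a description. The male minus the female log2 difference was 0.84 ± 0.31 (SE) for Fn1, 0.84 ± 0.23 (SE) for Fbln1, 0.84 ± 0.25 (SE) for Eln, 0.73 ± 0.24 (SE) for Fndc1 and 0.63 ± 0.18 (SE) for Aebp1. It was 0.52 ± 0.44 (SE) for Fbln5, 0.47 ± 0.23 (SE) for Fbn1, 0.24 ± 0.19 (SE) for Tgm2, 0.06 ± 0.09 (SE) for Sparc and -0.09 ± 0.11 (SE) for Fbln2. None of the 10 genes passed edgeR's quasi-likelihood test, where 0.116% of all 15562 genes did, and 5 of the 10 had an unadjusted p under 0.05, as did 11.6% of all genes. DESeq2 called 2 of the 10 (Fbln1 and Eln). Without GDX male 1, or without intact female 1, edgeR called 3 of the 10 (Aebp1, Fbln1 and Eln). The shares of all genes called in DESeq2 and without single rats are not given here, so nothing is read from these counts.

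Other genes of the same processes were followed in lists that do not contain the 10. These lists and the marker lists below were chosen with earlier results of these data known. The intact and GDX males are also the rats on which the 10 genes were chosen. List counts in comparisons with these males are therefore a description, and nothing is read from them. Among 18 genes of elastic fibre assembly, 15 had enough reads, and 9 were called higher and 0 lower in GDX than in intact males, where 6.78% of all genes were called higher and 6.58% lower. They included the lysyl oxidases Lox (log2 difference 1.21 ± 0.27, SE) and Loxl1 (1.64 ± 0.35, SE), which cross-link elastin and collagen, and Ltbp4 (0.42 ± 0.08, SE), a latent TGF-beta binding protein, with edgeR adjusted p of 0.0137, 0.0125 and 0.00939. Median log2 differences of this list were 0.54 in males and 0.04 in females. In females 0 of its 15 tested genes were called by edgeR and 1 had an unadjusted p under 0.05, as did 10.2% of all tested genes. This gene was Ltbp1, with 0.39 ± 0.16 (SE) and an edgeR adjusted p of 0.424. Of the 15, 13 had negative log2 differences between intact males and intact females, and 3 were called lower, where 2.56% of all tested genes were. These 3 were Ltbp2 (-1.13 ± 0.21, SE), Efemp1, which encodes fibulin-3 (-0.69 ± 0.14, SE), and Ltbp4 (-0.46 ± 0.10, SE). The shares over all genes given in this paragraph also apply to the same comparisons of the lists below. Mfap4, another gene of this list, was near 0, at most 0.226 CPM in any rat.

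Fibronectin acts on cells through receptors. Of 10 integrin and syndecan genes 9 were tested, and 1 was called higher in GDX males, Itgb1, the common beta subunit of fibronectin-binding integrins, with a log2 difference of 0.23 ± 0.06 (SE) and an edgeR adjusted p of 0.0292. The alpha subunit Itga5 had 0.57 ± 0.25 (SE) and was not called, with an edgeR adjusted p of 0.172. In females edgeR called 0 of the 9, and 0 had an unadjusted p under 0.05. The summed level of the list in males was 519 ± 27.4 CPM (SD, n = 5) when intact and 548 ± 18.4 CPM (SD, n = 5) after GDX, and in females 528 ± 21.97 CPM (SD, n = 6) when intact and 523 ± 27.9 CPM (SD, n = 6) after OVX.

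Matricellular genes encode products that act as signals within the matrix. Of 16 listed genes 14 were found and 13 were tested in males. In GDX males 8 were called higher and 0 lower, where 6.78% of all tested genes were called higher and 6.58% lower. Among the 8 were Tnc for tenascin-C (log2 difference 0.49 ± 0.08, SE), Thbs2 (0.62 ± 0.12, SE) and Thbs1 (2.11 ± 0.46, SE) for thrombospondins, with edgeR adjusted p of 0.00607, 0.00820 and 0.0131. In females edgeR called 0 of 14, and 2 (Thbs4 and Vtn) had an unadjusted p under 0.05, as did 10.2% of all tested genes. Of 13, 12 had negative log2 differences between intact males and intact females, and 4 were called lower, where 2.56% of all tested genes were. These 4 included Ccn2 (-1.02 ± 0.19, SE), Ccn3 (-1.09 ± 0.22, SE) and Thbs1 (-1.80 ± 0.46, SE). The family of Sparc gave 1 call in each direction among 7 genes in males, Smoc2 higher (0.93 ± 0.30, SE) and Spock2 lower (-0.27 ± 0.08, SE). Sparcl1, a close relative of Sparc made by astrocytes, had a difference of 0.04 ± 0.04 (SE) in males and 0.01 ± 0.03 (SE) in females.

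Relatives of Aebp1 and Tgm2 were also examined. Of 6 genes for carboxypeptidases and carboxypeptidase-like proteins 5 were tested, and Cpxm2 (1.35 ± 0.28, SE) and Cpz (1.56 ± 0.37, SE) were called higher in GDX males, with edgeR adjusted p of 0.0102 and 0.0190. Of 7 transglutaminase genes other than Tgm2, F13a1 for the A chain of factor XIII was the 1 with enough reads to test. It was called higher in GDX males (0.96 ± 0.20, SE, edgeR adjusted p of 0.0121) and not in OVX females (0.24 ± 0.20, SE, edgeR adjusted p of 0.750). Tgm3, Tgm4, Tgm5 and Tgm6 reached at most 0.201 CPM in any rat. Between OVX and intact females, between GDX males and OVX females, and for the difference between the sexes, edgeR's quasi-likelihood test called 0 genes of these 6 lists.

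Markers of cell types were measured in the same libraries, and their levels stand here beside the results. All 16 tested genes of a list for meningeal fibroblasts, of 18 listed and 17 found, were called higher in GDX than in intact males, with a median log2 difference of 1.59. The summed level of this list in males was 135 ± 50.3 CPM (SD, n = 5) when intact and 415 ± 159.6 CPM (SD, n = 5) after GDX, and in females 331 ± 138 CPM (SD, n = 6) when intact and 409.5 ± 82.3 CPM (SD, n = 6) after OVX. By rat it was 208, 143, 146, 98.7 and 78.2 CPM in intact males 1, 2, 3, 5 and 6, and 198, 316, 458, 608 and 494 CPM in GDX males 1, 2, 4, 5 and 6, so that GDX male 1 lay below intact male 1. In intact females it ranged from 153 to 487 CPM with a median of 354 CPM, with rats 1 and 2 the lowest at 181 and 153 CPM, and in OVX females from 298 to 514 CPM with a median of 386 CPM. The most abundant gene of the list by CPM was Col1a1 in all groups but intact females, where it was Col3a1 (84.8 CPM). Col1a1 had means of 33.2 CPM in intact and 117 CPM in GDX males, and 78.0 CPM in intact and 111 CPM in OVX females, and no gene of the list was at 0 in any group. All 16 tested genes had negative log2 differences between intact males and intact females, and 12 of them were called lower. EdgeR called 0 of 16 between OVX and intact females, where 0 also had an unadjusted p under 0.05. The lowest intact females of this list, rats 1 and 2, were also the lowest for Fn1, and the part of these levels in the results was not tested.

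Vascular markers also varied with the groups. Endothelial genes, 9 tested, summed to 149.9 ± 23.8 CPM (SD, n = 5) in males when intact and 231 ± 28.8 CPM (SD, n = 5) after GDX, and to 185 ± 45.6 CPM (SD, n = 6) in females when intact and 257 ± 39.6 CPM (SD, n = 6) after OVX, with Flt1 the most abundant by CPM and no gene at 0. Of these, 7 were called higher in GDX males and 1, Kdr, in OVX females (0.77 ± 0.13, SE, edgeR adjusted p of 0.0966). In OVX females all 9 had positive log2 differences, with a median of 0.44 against 0.49 in males, and 8 had an unadjusted p under 0.05. Cdh5 was lower in intact males than in intact females (-1.13 ± 0.16, SE). Mural cell genes, 8 tested, summed to 137 ± 14.1 CPM (SD, n = 5), 174 ± 15.9 CPM (SD, n = 5), 144 ± 22.5 CPM (SD, n = 6) and 175 ± 21.6 CPM (SD, n = 6) in the same order of groups, with 4 called higher in GDX males and Myh11 the most abundant by CPM. Both vascular lists differed by fragment class in intact males. The mean log2 CPM of the mural list was 3.18 and 3.29 in their shorter class and 2.78 to 2.93 in the longer. GDX males had 3.21 to 3.57. For the endothelial list the values were 3.84 and 3.95 in the shorter class and 3.50 to 3.66 in the longer. GDX males had 4.06 to 4.48. In intact females the 2 classes overlapped for both lists. All 7 neuronal genes had negative log2 differences between GDX and intact males, and 4 of them were called lower. Erythroid genes, 3 tested in males, were all called higher in GDX males, and their sum was 14.1 ± 5.56 CPM (SD, n = 5) in intact and 45.8 ± 32.1 CPM (SD, n = 5) in GDX males, with Hba-a2 the most abundant by CPM. In females their sum was 19.5 ± 9.12 CPM (SD, n = 6) when intact and 36.1 ± 7.22 CPM (SD, n = 6) after OVX, and edgeR called 0 of 4 tested, all with positive log2 differences and an unadjusted p under 0.05. The part of these levels in the results was not tested.

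Astrocyte genes gave 2 calls among 6 in GDX males, Gfap (0.38 ± 0.06, SE) and Aqp4 (0.18 ± 0.04, SE), and oligodendrocyte genes 1 among 6, Mbp (0.17 ± 0.05, SE), while in each of these lists 4 genes had positive and 2 negative log2 differences. Motor neuron genes gave 1 lower call among 6, Slc18a3 (-0.43 ± 0.13, SE). Between OVX and intact females edgeR called 0 of these 6, all 6 had negative log2 differences and 5 an unadjusted p under 0.05. The mean log2 CPM of this list differed by fragment class. In intact males it was 4.51 and 4.57 in the shorter class and 4.72 to 5.26 in the longer. GDX males had 4.45 to 4.73. Intact females had 4.56 and 4.84 in the shorter class and 5.03 to 5.16 in the longer. OVX females had 4.32 to 4.85. Cartilage and bone genes gave 1 lower call among 4 in GDX males, Acan (-0.47 ± 0.11, SE), while the other 3 had positive log2 differences and the median was 0.02. Microglial genes, 5 tested, dorsal root neuron genes, 1 tested, and skeletal muscle genes, 3 tested, gave 0 calls in males by edgeR, and 1, 0 and 0 of them had an unadjusted p under 0.05. Between OVX and intact females edgeR called 0 genes of the skeletal muscle and astrocyte lists. There, all 4 tested muscle genes had positive log2 differences (median 1.51) and 2 an unadjusted p under 0.05, and 5 of 6 astrocyte genes had positive differences (median 0.12) and 3 an unadjusted p under 0.05.

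**Figure D3:**
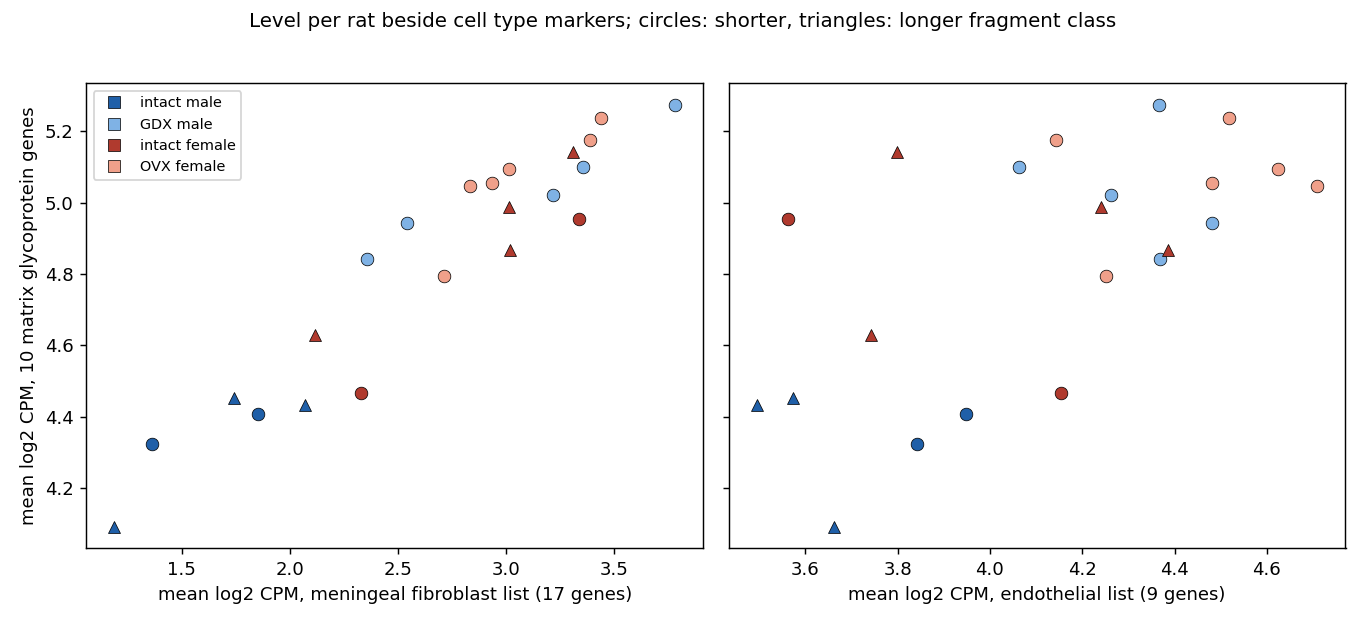
Mean log2 CPM of the 10 genes (vertical axis) in each of 22 rats against the mean log2 CPM of the meningeal fibroblast list (left, horizontal axis) and of the endothelial list (right, horizontal axis), with groups in colours, circles for the shorter and triangles for the longer fragment class. On the left the rats lie along a band from intact male 6 at 1.19 to GDX male 5 at 3.78, and on the right they are more scattered. The points are not centred, so differences between groups are part of both panels. After centring on the group means, which is not shown, r was 0.89 for the left and -0.09 for the right list.

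Variation among rats of the same group was examined after each gene's log2 CPM was centred on its group means, so that differences between groups play no part. These correlations over 22 rats are descriptions without a p. Fn1 and Fbln1 varied most closely together (Pearson's r = 0.90, Spearman's rho = 0.87), followed by Aebp1 and Fbln1 (r = 0.87, rho = 0.84), Fbn1 and Eln (r = 0.81, rho = 0.73) and Fbln1 and Fbn1 (r = 0.80, rho = 0.82). For Fn1 and Fbln1 r was 0.90 without the 2 rats farthest from the median of Fn1 and 0.93 over the 15 libraries of the shorter fragment class. Of the 45 pairs, 19 had r over 0.5, and all 19 lay among Fn1, Fndc1, Aebp1, Fbln1, Fbn1, Eln and Sparc. No pair with Tgm2, Fbln2 or Fbln5 had r over 0.5. Against the mean of the other 9 genes, r was -0.01 for Tgm2 (rho = -0.07), -0.09 for Fbln2 (rho = -0.02) and 0.04 for Fbln5 (rho = -0.01), compared with 0.89 for Fbn1 (rho = 0.82), 0.88 for Fbln1 (rho = 0.92) and 0.82 for Fn1 (rho = 0.79). Fbln5 has few reads, so its weak correlations say little. For Tgm2 the correlations depended on the rats used, with r to Fn1 of 0.22 over 22 rats (rho = 0.05), 0.49 in the shorter class and 0.02 without the 2 farthest rats, and r to Fbln1 of 0.14 (rho = 0.07), 0.36 and -0.14 in the same order.

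**Figure D4:**
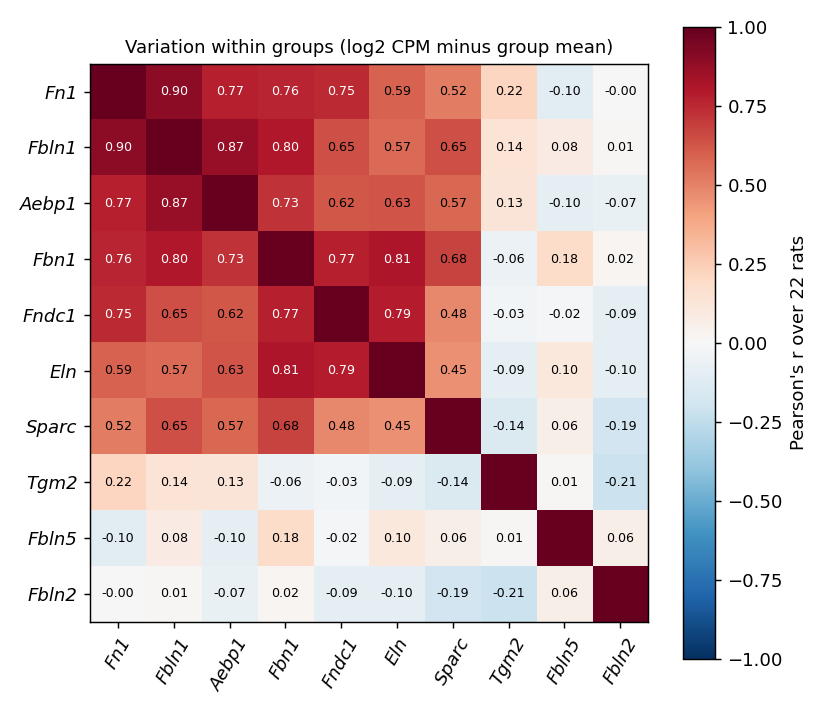
Pearson's r over 22 rats for each pair of the 10 genes, computed on log2 CPM after subtraction of the group mean, with red for positive and blue for negative values on a scale from -1 to 1. A block of 7 genes from Fn1 to Sparc is positively correlated, with Fn1 and Fbln1 at 0.90, and Tgm2, Fbln5 and Fbln2 stand outside it.

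The same centred values were compared with the marker lists and with all other tested genes. The mean of the 10 genes followed the meningeal fibroblast list (r = 0.89, rho = 0.90, r = 0.88 without the 2 farthest rats and 0.88 in the shorter class) and the elastic fibre list (r = 0.94, rho = 0.87, and r = 0.94 in the shorter class). Values of r were also 0.88 for the matricellular list (rho = 0.90), 0.80 for the carboxypeptidase list (rho = 0.82), 0.79 for the fibronectin receptor list (rho = 0.85) and 0.71 for the Sparc family (rho = 0.41, and r = 0.49 without the 2 farthest rats). The mean did not follow the endothelial list (r = -0.09, rho = -0.14) or the mural list (r = -0.13, rho = -0.11). With the astrocyte list r was 0.47 (rho = 0.34, r = 0.76 in the shorter class and 0.30 without the 2 farthest rats), and with the neuron list -0.31 (rho = -0.39, and r = -0.72 in the shorter class). For single genes, r with the meningeal fibroblast list was 0.92 for Fn1 (rho = 0.89), 0.90 for Fbln1 (rho = 0.91), 0.89 for Fbn1 (rho = 0.89), 0.04 for Tgm2 (rho = -0.10, and r = 0.33 in the shorter class) and -0.02 for Fbln2 (rho = 0.04). Tgm2 had r = 0.02 (rho = 0.02) with the endothelial list, and Sparc had r = -0.53 (rho = -0.52). Among 15562 genes tested, the 5 outside the 10 with the highest r to their scaled mean were Col6a2 (r = 0.94, rho = 0.88), Ahnak (r = 0.93, rho = 0.90), Col3a1 (r = 0.93, rho = 0.91), Col12a1 (r = 0.93, rho = 0.92) and Fkbp9 (r = 0.91, rho = 0.92). Col3a1 is also on the meningeal fibroblast list. Col6a2, Col3a1 and Col12a1 encode chains of collagens VI, III and XII, Ahnak a very large cytoplasmic scaffold protein and Fkbp9 a prolyl isomerase of the endoplasmic reticulum. In the shorter fragment class r was between 0.89 (Col12a1) and 0.97 (Ahnak). Col6a2 had a mean of 19.95 CPM in intact and 39.9 CPM in GDX males, and of 34.6 CPM in intact and 40.95 CPM in OVX females.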

How the data were processed

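Per the labels and the paper's methods, the authors prepared 1 library per rat (SMARTer Stranded Total RNA in the paper, Truseq in the labels), trimmed single-end reads, mapped them to Rnor_6.0 and deposited raw counts per gene, made with Subread. The mapper is given as Hisat2 in the paper's methods and as TopHat2 2.0.13 in the submitters' processing notes. Strand, multi-mapping and overlap settings are not given in the sources used here, so reads of near-identical or overlapping genes cannot be assigned further. Library totals ran from 12371756 to 17571887 counts, without molecular identifiers. The p-values set differences between group means against the spread between rats.

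Genes were tested on the whole table in R 4.3.3 with edgeR 4.0.16 (filterByExpr, TMM factors, glmQLFit, glmQLFTest, 2 groups per fit, 4 for the difference between the sexes), with Benjamini-Hochberg adjustment over all genes tested and calls at an adjusted p under 0.1. All 10 genes passed the filter in every comparison. CPM used TMM factors over 22 libraries, and log2 CPM a prior count of 2. SE is the log2 fold change divided by the root of the F statistic. Alternatives, DESeq2 1.42.0 among them, were run as given in the closing section. The fits were also tried on simulated data, whose outcome is not given here. No 2 libraries held identical counts. The genes, lists and tests were chosen with earlier results of these data known. Named were all 10 genes, up to 3 genes per list and comparison with the smallest p, the most abundant marker and those at 0, and the 5 genes most like the 10; the correlations of single genes with marker lists, further called or unadjusted-level genes and the rat values of marker lists were chosen after their values were seen. Tnxb, Ecm2, Col1a2, Pecam1, Ly6c1, Myh1, Hba-a1 and Hbb-b1 were not analysed here, and Hba-a2 matched more than 1 row. The results of 1 marker list are not reported here. Promoters are from RefSeq GRCr8.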

Additional observations from a re-analysis of the deposited data

Results flagged for a closer look

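Within each group of rats the highest and lowest value were compared with the others by Dixon's 95% limit, and chance flags about 1 in 20 groups. Among 40 combinations of gene and group 2 were found, as many as that rate gives. Intact male 5 was high for Fbln2 at 29.6 CPM, with the other 4 intact males between 26.7 and 27.5 CPM. GDX male 1 was high for Fbln5 at 2.41 CPM, with the others between 1.51 and 1.63 CPM.

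Among 76 combinations of list and group 6 were found, all in males. The same rats enter every list, so these flags are not independent of each other, and nothing is read from their number. GDX male 5 was high for the summed elastic fibre list at 223 CPM (others 180.1 to 192 CPM) and for the fibronectin receptor list at 580.2 CPM (others 534 to 547 CPM). Intact male 3 was high for the carboxypeptidase list at 464 CPM (others 435 to 438 CPM), and intact male 6 was low for the transglutaminase list at 2.04 CPM (others 4.09 to 4.38 CPM). For skeletal muscle markers intact male 2 stood at 133 CPM (others 5.84 to 11.3 CPM) and GDX male 4 at 50.9 CPM (others 8.61 to 16.5 CPM). OVX females 4 and 1 were also high for these markers, at 169 and 105 CPM, but did not stand alone in their group. Neither of these males was extreme for any of the 10 matrix genes by the same test.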

How the results depend on the processing

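The 7 calls between GDX and intact males became 5 to 9 under the other settings and 6 to 9 when single rats were left out, and since this contrast chose the genes nothing is read from these counts. Between OVX and intact females 0 of the 10 genes were called under every setting but an unadjusted p under 0.1, which gave 4, and 0 to 0 when rats were left out. For intact males against intact females the 4 calls became 0 with the shorter fragment class alone, 7 at an unadjusted p under 0.1, and 3 to 6 without single rats. GDX males and OVX females gave 0 throughout, 0 to 0 without single rats. For the difference between the sexes the count of 0 became 2 in DESeq2, 6 at an unadjusted p under 0.1 and 0 to 3 without single rats. Fewer rats entered the fit of the shorter class, and for the other changes the cause was not tested. Over all genes, the shorter class alone called 440 in place of 1995 in males and 34 in place of 599 between intact sexes. For the other settings and for single rats left out, the shares over all genes are not given here. Nothing is therefore read from the changes in those counts.

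The log2 difference of OVX minus intact females changed sign for Fbn1 without intact female 1 (-0.0653) or 2 (-0.0447) or OVX female 1 (-0.0252) or 3 (-0.00566), with a range of -0.0653 to 0.168, and for Eln without intact female 1 (-0.0746) or 2 (-0.0503) or OVX female 1 (-0.0618), with a range of -0.0746 to 0.119. It was above 0 for the other 8 genes whichever rat was left out, but moved by over 1.5 times for Fbln5 (0.0337 to 0.337), Fbln1 (0.0612 to 0.202), Fbln2 (0.0527 to 0.180) and Fndc1 (0.171 to 0.410).

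Rat numbers recur across groups, but same-numbered rats did not deviate together (r of -0.0905 to 0.00931 in 4 male and -0.0805 to 0.045 in 6 female pairs, with 1 of 10 rats closest to its own number). With the rat number as a replicate block the calls were 7, 0, 3, 0 and 0 in the order above. Counts of 9 to 38 reads limit Fbln5.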
